A study of Homo sapiens with 12 samples.

Results

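The RAS, RAF, MEK and ERK genes were described here as 7 genes, NRAS, HRAS, ARAF, BRAF, MAP2K1, MAP2K2 and MAPK3, taken by their symbols from a count table of 44659 genes. RNA-seq reads were counted in A375 cells, an established human melanoma cell line carrying a mutated BRAF gene, with rRNA-depleted libraries. The labels describe cytoplasmic RNA from Triton X-100 lysates. The study's methods give such a lysis for transfected cells but speak of total RNA for RNA-seq, so the fraction measured is uncertain. In the first experiment, cells were treated for 24 h with MAPK inhibitors (MAPKi), that is 500 nM vemurafenib, which inhibits BRAF, together with 500 nM cobimetinib, which inhibits MEK, or with DMSO, the solvent. In the second experiment, cells were kept for 24 h without glutamine (Gln-depleted) or in control medium with 2 mM glutamine (CTRL medium). Cells of the MAPKi experiment grew in the medium with 2 mM glutamine, and every culture received serum. Each of the 4 groups had 3 libraries, and since the labels do not say that replicates came from separate cultures, p-values measure the spread between these libraries, which may be partly technical. A375 is a single line, so nothing here extends to other melanoma cells.

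RAS proteins are small GTPases at the plasma membrane that are active when bound to GTP. Active RAS recruits RAF kinases (ARAF and BRAF among them), RAF phosphorylates the MEK kinases (MAP2K1 encodes MEK1 and MAP2K2 encodes MEK2), and MEK phosphorylates the ERK kinases (MAPK3 encodes ERK1), which act on kinases and transcription factors. In many melanomas a mutated BRAF keeps this cascade on without a growth factor. The inhibitors act on the proteins, so the mRNA levels of the members are no check of the treatment.

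Between 31056296 and 40071368 reads were counted per library. The 6 libraries of the MAPKi experiment belong to sequencing batch 2 and the 6 of the glutamine experiment to sequencing batch 1, so levels were not compared between the experiments. In the glutamine experiment, replicate 1 of both groups belongs to experimental batch 1 and replicates 2 and 3 to experimental batch 2. Pairs of replicates differed far more in the glutamine experiment (a chi-square divided by its degrees of freedom of 39.6 to 191, highest between batches) than after DMSO or MAPKi (4.74 to 15.6), and every member but HRAS had the larger standard error there. Transcripts that ERK signaling keeps high were also examined. Their list was chosen with earlier results of these data known, so it is no independent check of the treatment. Among 14 such genes, the 13 that could be tested fell with MAPKi, against 38.9% of all genes tested. The median log2 fold change of these 13 was -3.64. The ERK phosphatase DUSP6 went from a normalized count of 4507 ± 164 with DMSO to 5.99 ± 3.54 with MAPKi (SD, n = 3). Among markers of the melanocytic lineage, SOX10 lay between 330 and 874 CPM (counts scaled to the TMM-adjusted library total) in every group. MLANA and TYR were at most 5.21 CPM. Among the leucocyte markers, CD3E was at 0 in every library and PTPRC was at most 0.513 CPM, while CD68 was higher with MAPKi (from 391 to 403 CPM) than with DMSO (from 54.0 to 63.7 CPM). That single gene set the summed leucocyte level, from 391.5 to 403.5 CPM with MAPKi and from 54.4 to 64.2 CPM with DMSO. The summed level of the 8 melanocytic markers ranged from 8686 to 11000.5 CPM with MAPKi and from 1308 to 1401 CPM with DMSO. DCT carried this sum with MAPKi (from 6928 to 9158 CPM), while S100B was lower (from 37.6 to 42.0 CPM, against 164 to 179 CPM with DMSO). In CTRL medium the sum ranged from 1022 to 1238 CPM and after glutamine depletion from 649 to 739 CPM. Their part in the results below was not tested.

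With MAPKi, BRAF rose and MAP2K1 fell, both by more than 1.5-fold, and 4 other members changed less, by at most 1.22-fold. After glutamine depletion BRAF rose by a larger log2 fold change than with MAPKi. That difference passed with the replicate number taken into account (adjusted p = 4.91e-04, edgeR) and not without it (adjusted p = 0.149). NRAS and MAPK3 changed when the replicate number was taken into account, while both MEK genes stayed within their errors. Since RNA was measured in bulk, fewer cells with a transcript and less of it per cell cannot be told apart.

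Levels were first compared between the members per length, as normalized CPM per kb of the exons of the MANE Select transcript (the reference transcript of each gene). In cells with DMSO, MAP2K2 was highest at 146 ± 3.38 (SD, n = 3) CPM per kb. NRAS followed at 39.3 ± 0.344, then MAPK3 at 33.4 ± 0.793, MAP2K1 at 32.6 ± 1.20, ARAF at 28.7 ± 1.57, BRAF at 9.56 ± 0.427 and HRAS at 0.837 ± 1.18 CPM per kb. Ranges of neighbours in this order overlapped only for MAPK3 and MAP2K1. With MAPKi, ARAF (35.0 ± 1.37 CPM per kb) and NRAS (34.4 ± 1.74) overlapped behind MAP2K2 (135 ± 3.07), and MAP2K1 (18.5 ± 0.0375) ranked below MAPK3 (30.6 ± 1.29). In CTRL medium, the ranges of NRAS, MAP2K1, ARAF and MAPK3 overlapped from neighbour to neighbour between 42.9 ± 15.6 and 26.5 ± 4.00 CPM per kb, with MAP2K2 above them at 161 ± 11.9 and BRAF below at 7.55 ± 2.25. After glutamine depletion BRAF (19.9 ± 6.49 CPM per kb) no longer ranked below MAPK3 (18.5 ± 1.80), and their ranges overlapped. The order depends on the length used, and so does the first place. Per kb of all annotated exons, NRAS was at 39.3 and MAP2K2 at 32.6 CPM with DMSO. Per kb of coding sequence, NRAS was at 300.2 and MAP2K2 at 211 CPM with DMSO. By that length the mean of BRAF (43.7) was above that of MAP2K1 (40.0) with MAPKi. After glutamine depletion BRAF (56.0) was then above ARAF (42.6) and MAPK3 (29.1).

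**Figure D1:**
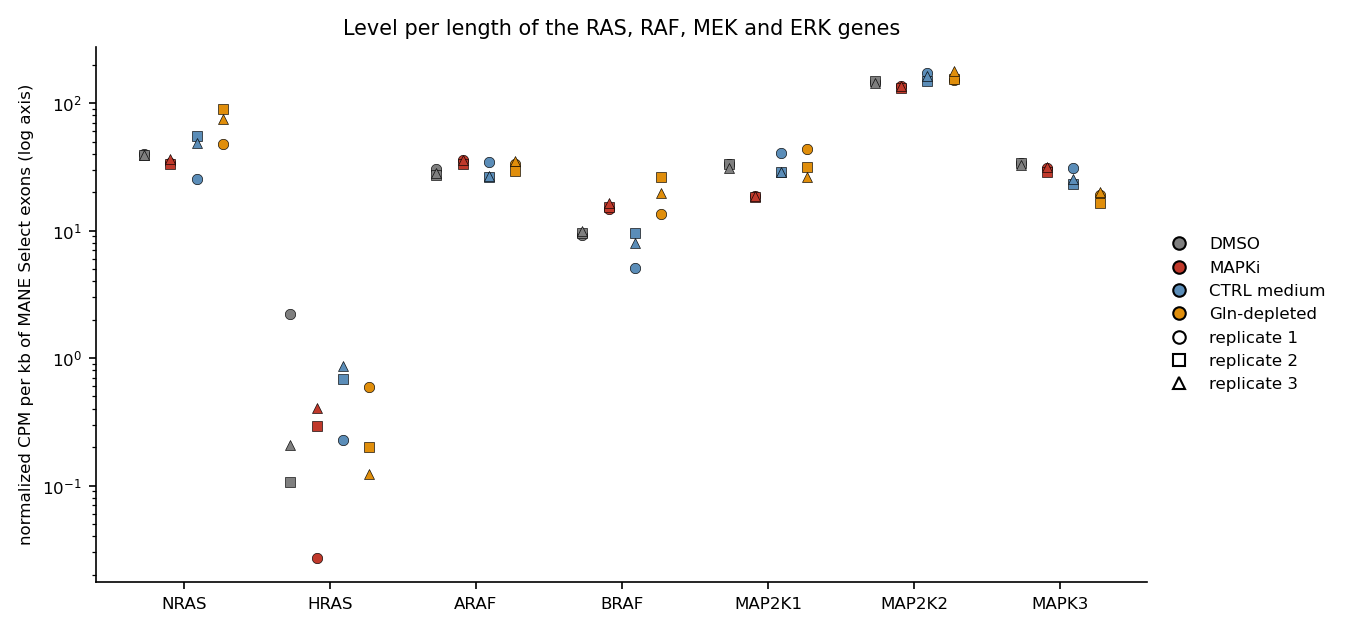
Normalized CPM per kb of MANE Select exons (log axis) of the 7 members, with 1 point per library, coloured by group and shaped by replicate. MAP2K2 is highest in every library, BRAF lies below the other members apart from HRAS in DMSO, MAPKi and CTRL medium, and HRAS is lowest in every group.

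Comparison of MAPKi with DMSO asked how the genes of the blocked cascade respond to the block itself. Over all 12592 protein-coding genes tested with edgeR (quasi-likelihood, p adjusted after Benjamini-Hochberg), 39.1% were higher and 38.9% lower at an adjusted p of at most 0.05. Of the 7 members, 2 were higher and 4 lower, which is close to these shares. Tested against a change of 1.5-fold, 17.1% of all genes were higher and 18.4% lower, and among the members BRAF was higher and MAP2K1 lower. The median log2 fold change was -0.13 over the members and 0.01 over all genes tested.

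BRAF encodes the RAF kinase whose mutated form vemurafenib binds. It lies on chromosome 7 of GRCh38 from 140719327 to 140924929 on the minus strand, and its MANE Select transcript has 18 exons. With DMSO its normalized counts in replicates 1 to 3 were 2068, 2153 and 2259.8, and with MAPKi 3338, 3465 and 3736. All MAPKi libraries were above all DMSO libraries, and the SD was 96.4 with DMSO and 203 with MAPKi. This was a log2 fold change of 0.70 (standard error 0.0545, adjusted p = 1.93e-06, edgeR), a 1.63-fold rise, and the test against 1.5-fold gave an adjusted p of 0.0238. This value is close to the limit, since DESeq2 gave an adjusted p of 0.21 against 1.5-fold and the edgeR value was 0.0601 without DMSO replicate 1, 0.106 without MAPKi replicate 3 and 0.331 in a fit of all 12 libraries. The rise itself was called under every alternative, with log2 fold changes from 0.65 to 0.79. BRAF shares 1239 exon bases, 5.29% of its annotated exon length, with NDUFB2 on the other strand, a respiratory chain gene whose log2 fold change was 0.22 (standard error 0.0496). Whether reads were counted by strand is not given in the sources used here.

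MAP2K1 encodes MEK1, a target of cobimetinib. It lies on chromosome 15 from 66386837 to 66491656 on the plus strand, with 11 exons in its MANE Select transcript. Normalized counts were 2949.6, 2985 and 2785 with DMSO and 1653, 1646 and 1651 with MAPKi. The MAPKi libraries were nearly identical (SD 3.34) and all below the DMSO libraries. MAP2K1 fell by 0.82 on the log2 scale (standard error 0.0415, adjusted p = 1.06e-07, edgeR), that is 1.76-fold, and this fall passed the 1.5-fold limit with an adjusted p of 1.42e-04. In a fit of all 12 libraries the fall was called but did not pass 1.5-fold (adjusted p = 0.144). It shares 216 exon bases with SNAPC5, which did not pass (log2 fold change 0.05, standard error 0.0625, adjusted p = 0.497), and 20.5% of its annotated exon length with a long non-coding RNA on the other strand that is not used here.

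The starts of BRAF and MAP2K1 are shown because these members moved past 1.5-fold in opposite directions. The windows run from 270 bases before to 30 bases after the first base of the MANE Select transcript, on the strand of the gene, and were read from the GRCh38 genome at chr7:140924900-140925199 for BRAF and at chr15:66386642-66386941 for MAP2K1. Capitals mark matches to any of 7 motifs, searched on both strands: CCGGAAGT (ETS factors), TGACTCA (AP-1), TGACGTCA (CRE), CACGTG (E-box), GGGCGG (GC box), CCAAT and TGATGNAAT (ATF4 composite site).
BRAF: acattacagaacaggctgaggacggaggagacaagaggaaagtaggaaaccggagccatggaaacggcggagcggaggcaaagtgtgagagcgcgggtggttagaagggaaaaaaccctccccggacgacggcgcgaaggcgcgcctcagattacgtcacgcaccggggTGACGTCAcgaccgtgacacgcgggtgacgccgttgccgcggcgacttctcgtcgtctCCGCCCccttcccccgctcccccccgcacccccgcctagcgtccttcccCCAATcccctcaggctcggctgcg
MAP2K1: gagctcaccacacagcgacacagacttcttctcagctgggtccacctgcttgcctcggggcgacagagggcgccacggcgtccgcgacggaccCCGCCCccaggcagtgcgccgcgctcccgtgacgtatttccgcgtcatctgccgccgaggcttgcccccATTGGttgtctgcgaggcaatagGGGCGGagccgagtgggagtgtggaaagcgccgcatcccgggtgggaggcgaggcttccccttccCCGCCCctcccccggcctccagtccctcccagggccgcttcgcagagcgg
The BRAF window holds 1 CRE match starting 101 bases before the first base, 1 GC box and 1 CCAAT. The MAP2K1 window holds 3 GC boxes and 1 CCAAT on the other strand. A CRE match was found in 2.82% of 19061 windows of the same length at protein-coding genes, a GC box in 62% and a CCAAT in 37%. Neither window holds the ETS, AP-1, E-box or ATF4 letters, which 6.21%, 3.6%, 9.04% and 0.588% of all windows hold. Among the other members, NRAS has 1 ETS match that starts at base 5 of its transcript, 1 E-box and 3 GC boxes. MAPK3 has 1 E-box and 6 GC boxes, and HRAS has 6 GC boxes and 1 CCAAT. MAP2K2 has 2 GC boxes and ARAF has 2 CCAAT. These matches describe the letters of the windows and show no binding.

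The 4 other members that passed the test with MAPKi changed little. NRAS encodes a RAS GTPase often mutated in melanomas without a mutated BRAF. Its normalized counts were 6008, 5938 and 5907 with DMSO and 5102, 5000.1 and 5499.5 with MAPKi. Both groups were apart, and NRAS fell by 0.19 on the log2 scale (standard error 0.0476, adjusted p = 0.00435, edgeR). This call was lost with a correction for the GC content of genes (log2 fold change -0.09, adjusted p = 0.0908), NRAS being among the genes with the lowest GC content (37.4%, percentile 7.08 of the genes tested).

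ARAF, which encodes the RAF kinase with the weakest own activity, had normalized counts of 2537, 2286 and 2348 with DMSO and 2985, 2781 and 2969 with MAPKi. All libraries with MAPKi were higher, by a log2 fold change of 0.29 (standard error 0.0515, adjusted p = 6.82e-04). MAP2K2, which encodes MEK2, had 8816, 9062 and 8657 counts with DMSO and 8195, 7920.0 and 8274 with MAPKi, and MAPK3, which encodes ERK1, had 2126, 2109 and 2033 against 1944, 1817 and 1967. MAP2K2 fell by 0.12 (standard error 0.0428, adjusted p = 0.0262) and MAPK3 by 0.13 (standard error 0.0450, adjusted p = 0.0252) on the log2 scale. Both calls were lost when either DMSO replicate 1, DMSO replicate 2 or MAPKi replicate 2 was left out, with adjusted p from 0.0681 to 0.114. The MAPK3 call was also lost with DESeq2 (adjusted p = 0.0545). With the GC correction MAP2K2 (65.4% GC) was at -0.31 (adjusted p = 7.74e-05), MAPK3 (61.0% GC) at -0.24 (adjusted p = 6.14e-04) and ARAF (59.0% GC) at 0.22, so the order of size among these genes depends on that correction. In the fit of all 12 libraries none of NRAS, ARAF, MAP2K2 and MAPK3 passed (edgeR, adjusted p from 0.0832 to 0.588).

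**Figure D2:**
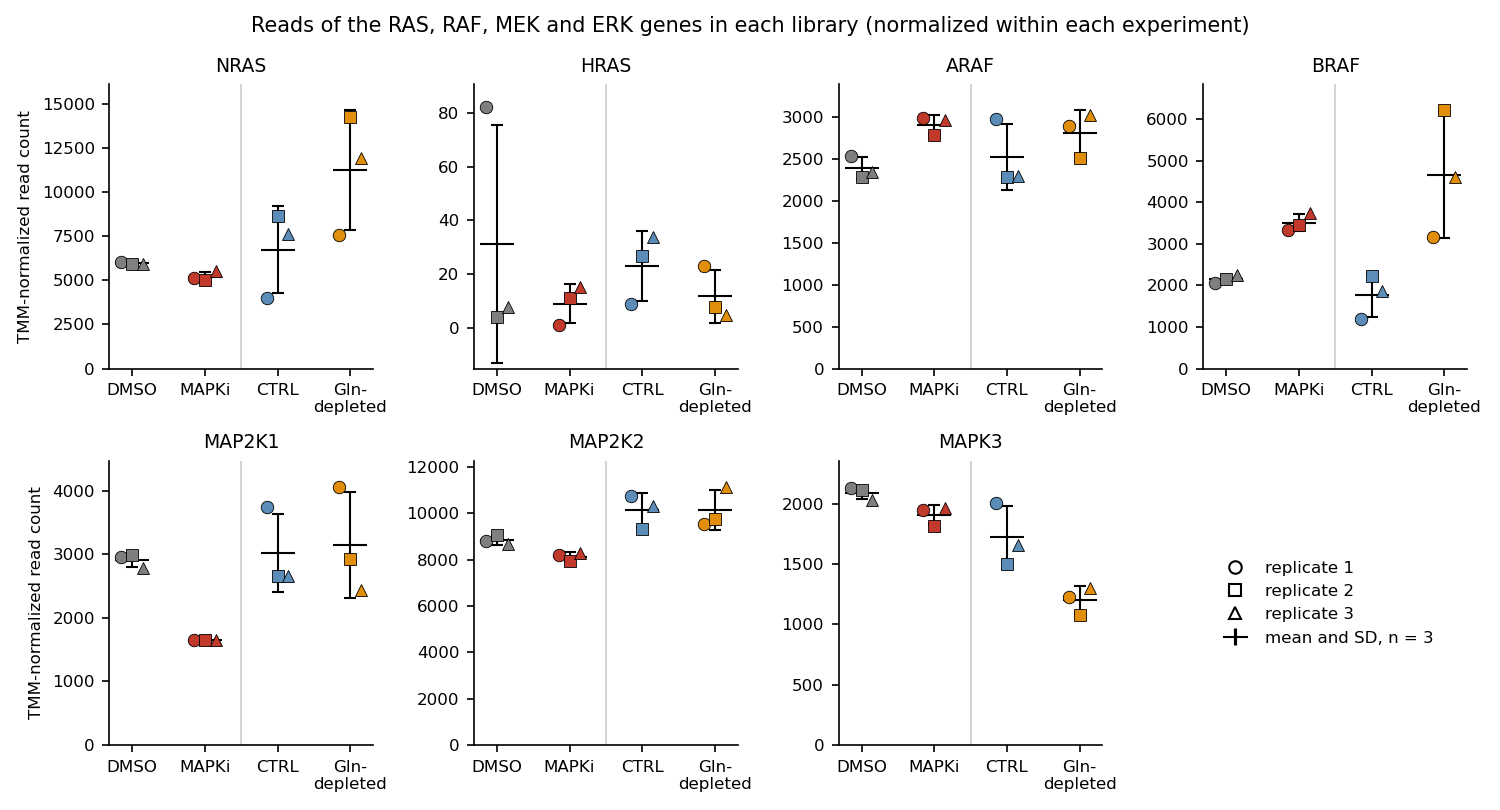
TMM-normalized read counts of each member in each library, with the mean and SD of the 3 replicates, DMSO and MAPKi to the left and CTRL medium and Gln-depleted to the right of the grey line. BRAF lies between 3338 and 3736 in the MAPKi libraries and between 2068 and 2259.8 in the DMSO libraries, and MAP2K1 lies between 1646 and 1653 in the MAPKi libraries.

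HRAS could not be compared. It lies on chromosome 11 from 532242 to 537321 and had from 1 to 77 reads in any library. In replicates 1 to 3 the reads were 77, 4 and 8 with DMSO, 1, 10 and 17 with MAPKi, 9, 28 and 38 in CTRL medium, and 22, 8 and 4 after glutamine depletion. Replicates of the same group were far apart, the first DMSO library holding 77 reads and the second 4, and groups overlapped in both experiments. HRAS gave a log2 fold change of -1.74 with MAPKi (standard error 1.08, adjusted p = 0.166) and of -0.95 after glutamine depletion (standard error 0.683, adjusted p = 0.357). HRAS met the limit of a mean normalized count of 10 in the MAPKi experiment through DMSO replicate 1, without which it was not tested. In experimental batch 2 alone its log2 fold change after glutamine depletion was -2.23 (adjusted p = 0.0174), on 4 to 38 reads.

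The table holds a second row for HRAS, with 1 read in all. Of 1289 protein-coding genes with such a second row, 72.7% had a mean count under 10, against 32.1% of the 18085 without. Of the 11 other protein-coding genes within 100000 bases of HRAS, 10 had a second row too, and their highest counts ran from 0 to 942 reads. The part of the second rows in the low count of HRAS was not tested.

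Counted per kb of MANE Select exons, MAP2K1 made up 18.2% ± 0.296 of the reads of both MEK genes with DMSO and 12.1% ± 0.226 with MAPKi (SD, n = 3). In CTRL medium its share was 16.7% ± 2.10 and after glutamine depletion 17.4% ± 4.77, with overlapping ranges.

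Ratios of paralogues within a library do not depend on the normalization between libraries. Their size depends on the length used, whereas the fold difference between groups does not. After glutamine depletion the ratio of BRAF to ARAF (mean on the log2 scale) was 0.590 per kb of MANE Select exons, the length used below. It was 1.27 per kb of coding sequence and 0.233 per kb of all annotated exons. The ratio of MAP2K1 to MAP2K2 per kb of exon was 0.227, 0.223 and 0.218 with DMSO and 0.137, 0.141 and 0.135 with MAPKi, lower by 1.62-fold over the group means and lower in 3 of 3 replicate pairs. The ratio of BRAF to ARAF was 0.30, 0.347 and 0.354 with DMSO and 0.412, 0.459 and 0.463 with MAPKi, a 1.33-fold difference. Groups were apart for both ratios, with p = 0.1 in a two-sided exact permutation test, which is the smallest p that 3 against 3 libraries allow. After glutamine depletion the ratio of BRAF to ARAF was 0.403, 0.909 and 0.561 against 0.148, 0.360 and 0.30 in CTRL medium, higher by 2.34-fold (exact permutation p = 0.1) and higher in 3 of 3 replicate pairs. The ratio of MAP2K1 to MAP2K2 was 0.289, 0.203 and 0.148 after depletion and 0.235, 0.194 and 0.175 in CTRL medium, with overlapping groups (exact permutation p = 0.9).

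**Figure D3:**
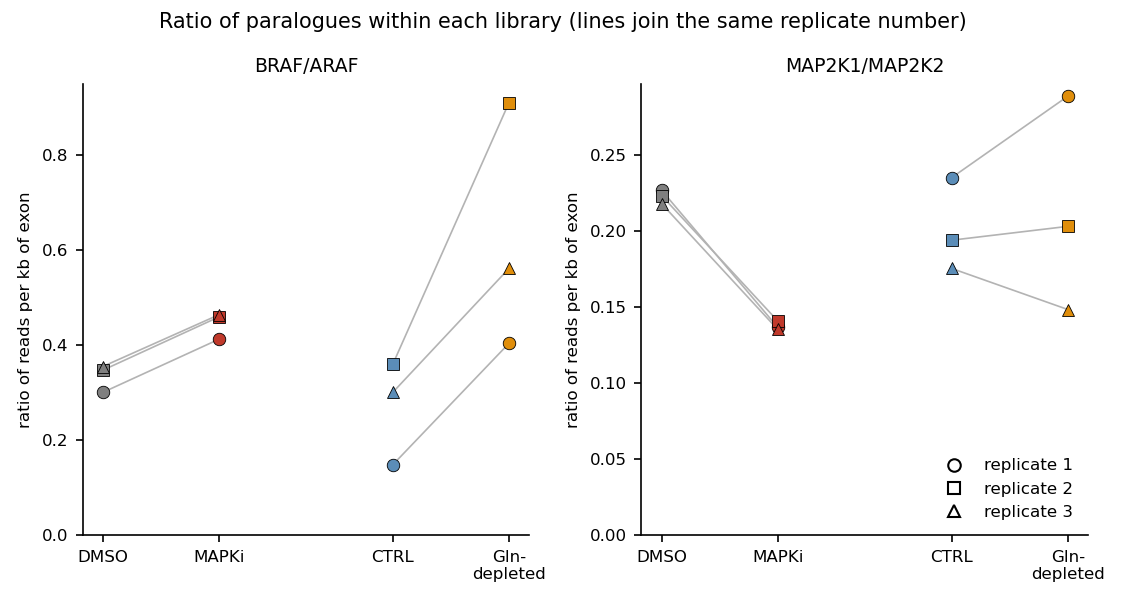
Ratio of reads per kb of exon of BRAF to ARAF (left) and of MAP2K1 to MAP2K2 (right) in each library, with lines joining control and treated libraries of the same replicate number. The ratio of MAP2K1 to MAP2K2 is lower in every MAPKi library (0.135 to 0.141) than in every DMSO library (0.218 to 0.227), and the ratio of BRAF to ARAF is higher in the treated library of all 6 pairs.

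Comparison of Gln-depleted cells with CTRL medium asked how the same genes respond to a lack of glutamine, without an inhibitor. Of 12511 genes tested with edgeR, 9.74% were higher and 7.94% lower, and 3.51% were higher past 1.5-fold. Replicate numbers pair the libraries in this experiment, and with the replicate number as a term (replicate block) these shares were 25.6%, 22.9% and 8.99%. Among the members, BRAF was called higher without the block, and BRAF and NRAS were called higher and MAPK3 lower with it. The median log2 fold change was 0.06 over the members and 0.02 over all genes tested. With library totals alone in place of TMM normalization, the median of all genes moved from 0.02 to -0.16, and 34.0% in place of 55.1% of the called genes were higher, so a change is given relative to the other genes.

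BRAF had normalized counts of 1198, 2234 and 1878 in CTRL medium and 3174, 6218 and 4615 after glutamine depletion. Every depleted library was above every control library, and the log2 ratio within a replicate number was 1.41, 1.48 and 1.30. This gave a log2 fold change of 1.40 (standard error 0.316, adjusted p = 0.0213, edgeR), a 2.64-fold rise, and with the replicate block 1.39 (standard error 0.117, adjusted p = 2.05e-04). Tested against 1.5-fold, the adjusted p was 0.0843 without the block and 0.00111 with it. The call was lost without CTRL medium replicate 3, Gln-depleted replicate 2 or Gln-depleted replicate 3 (log2 fold changes 1.44, 1.14 and 1.39, adjusted p from 0.0652 to 0.0819). Within experimental batch 2 it was 1.40 (adjusted p = 0.00431).

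NRAS had normalized counts of 3971, 8633 and 7602 in CTRL medium and 7559, 14236 and 11901 after glutamine depletion. The groups overlapped because replicate 1 was lowest in both, yet within each replicate number the depleted library was higher, by log2 ratios of 0.93, 0.72 and 0.65. Without the block NRAS gave a log2 fold change of 0.74 (standard error 0.337, adjusted p = 0.159), and with the replicate block 0.77 (standard error 0.115, adjusted p = 0.00166). In experimental batch 2 alone it was 0.69 (adjusted p = 0.0193).

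MAPK3 had normalized counts of 2006, 1499.8 and 1655 in CTRL medium and 1230.1, 1074 and 1303 after depletion. All depleted libraries were below all control libraries, with log2 ratios of -0.71, -0.48 and -0.35 within a replicate number. MAPK3 fell by 0.51 on the log2 scale with the replicate block (standard error 0.125, adjusted p = 0.0123), whereas the value without it was -0.52 (standard error 0.197, adjusted p = 0.104), and -0.41 in experimental batch 2 alone (adjusted p = 0.0951).

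GC content differed between the members that rose and the member that fell, but not all members followed it. NRAS (37.4%) and BRAF (41.1%, percentile 22.5 of the genes tested) are poor in GC and rose, and MAPK3 (61.0%, percentile 87.3) is rich in GC and fell. MAP2K2, the member richest in GC (65.4%), was at a log2 fold change of 0.0036, and ARAF (59.0%) at 0.16. The part of GC content was tested only through the correction. With a correction for the GC trend of each library together with the replicate block, the log2 fold changes were 0.48 for NRAS (adjusted p = 0.00632), 1.25 for BRAF (adjusted p = 2.49e-04) and -0.38 for MAPK3 (adjusted p = 0.0291), all smaller in size and still called.

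ARAF and the MEK genes stayed within their errors after glutamine depletion. ARAF had 2976, 2285 and 2301 counts in CTRL medium and 2897, 2517 and 3030.0 after depletion, with a log2 fold change of 0.16 (standard error 0.195, adjusted p = 0.597). MAP2K1 had 3735, 2662 and 2665 against 4060.1, 2928 and 2438, and a log2 fold change of 0.06 (standard error 0.25, adjusted p = 0.894). SNAPC5, whose exons overlap those of MAP2K1, rose in the same libraries (log2 fold change 1.02, standard error 0.270, adjusted p = 0.0364). For MAP2K2 the counts were 10763, 9301 and 10298 against 9529, 9769 and 11138, a log2 fold change of 0.0036 (standard error 0.174). Groups overlapped for all 3 genes, and the replicate block did not bring any of them past the threshold.

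**Figure D4:**
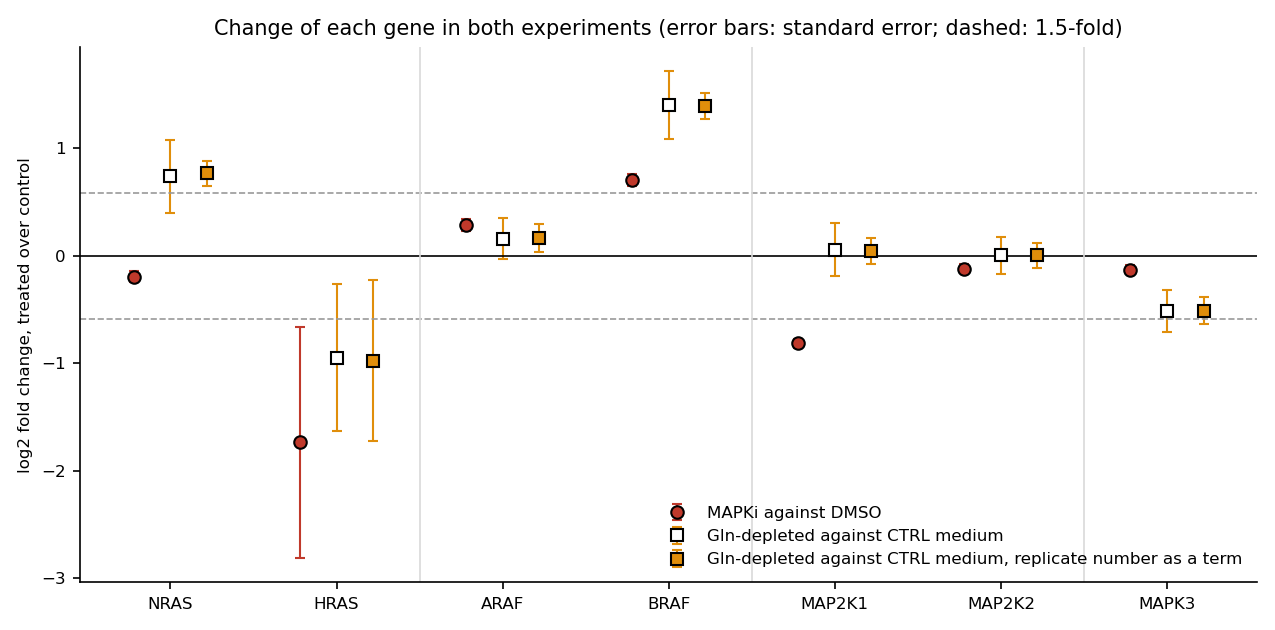
Log2 fold change of each gene, treated over control, with its standard error, for MAPKi (red), glutamine depletion (open) and glutamine depletion with the replicate number as a term (filled orange), for the 7 members. Dashed lines mark 1.5-fold. MAP2K1 is at -0.82 with MAPKi and 0.06 after depletion, NRAS at -0.19 and 0.74, BRAF above 0 in both, and HRAS has the widest errors.

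Whether a member changed differently in the experiments was tested as a contrast over all 12 libraries, MAPKi minus glutamine depletion. Of 12626 genes, 40.3% differed, and 60.7% with the replicate block. MAP2K1 differed by -0.82 on the log2 scale (standard error 0.264, adjusted p = 0.0268, edgeR), and by -0.81 with the replicate block (adjusted p = 2.76e-04). Without the block this value was close to the threshold, with an adjusted p from 0.0471 to 0.0604, lost in 7 of 8 cases, when a single DMSO or MAPKi library or CTRL medium replicate 2 or 3 was left out. NRAS differed by -0.91 with the block (standard error 0.102, adjusted p = 1.36e-04), and without it the value was -0.88 (adjusted p = 0.0763). BRAF differed by -0.64 with the block (adjusted p = 4.91e-04) against -0.65 without it (adjusted p = 0.149), its rise being larger after depletion. MAPK3 differed by 0.43 with the block (adjusted p = 0.0157) against 0.44 without it (adjusted p = 0.0756). With the GC correction added to the block, NRAS, BRAF and MAP2K1 still differed (-0.59, -0.45 and -0.81), MAPK3 did not pass (0.17, adjusted p = 0.245) and MAP2K2 passed (-0.44, adjusted p = 0.00727). Sequencing batch and experiment cannot be told apart in this contrast.

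Genes that act around the members were grouped in lists, and the shares over all genes given above apply to their counts. These were 39.1% higher and 38.9% lower with MAPKi. After glutamine depletion they were 9.74% higher and 7.94% lower without the block, and 25.6% and 22.9% with it. Of 8 RAS relatives and members of the SHOC2 complex, which frees RAF from inhibition, 4 rose and 2 fell with MAPKi. MRAS, the RAS relative that binds SHOC2, rose from 1035 ± 50.5 to 3024 ± 113 normalized counts (log2 fold change 1.55, adjusted p = 6.84e-09), and RRAS by a log2 fold change of 0.70. RRAS2 and PPP1CC, a phosphatase subunit, fell by 1.05 on the log2 scale each. After glutamine depletion the smallest adjusted p without the block was 0.0956 (RRAS2), and with the replicate block 4 rose and 1 fell.

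Among 12 exchange factors and adaptors, which load RAS with GTP or connect it with receptors, 9 could be tested with MAPKi, of which 4 rose and 3 fell. The adaptors GAB1 and GAB2 went in opposite directions: GAB1 rose from 1000.05 ± 53.8 to 2051 ± 131 counts (log2 fold change 1.04) and GAB2 fell from 3765 ± 227 to 1340.3 ± 46.1 (by 1.49). After glutamine depletion both were lower, GAB1 by a log2 fold change of -1.10 (adjusted p = 0.0144) and GAB2 by -1.44 (adjusted p = 0.00726). Of the 10 genes of this list tested there, 1 rose and these 2 fell, and with the block 4 rose and 2 fell. The riser was SHC1 (log2 fold change 1.08, adjusted p = 0.00985), named after its value was seen. RASGRP3 rose (log2 fold change 1.37) and RASGRP1 fell (by 1.12) with MAPKi. Of 10 RAS GTPase-activating proteins, which switch RAS off, 7 were tested, 2 rose and 3 fell. RASA4, with few reads (27.8 ± 2.14 and 113 ± 22.1 counts), and RASAL2 were higher by log2 fold changes of 2.01 and 0.96, and RASA2 and DAB2IP fell by 1.36 and 0.85. After glutamine depletion 1 of 7 was called, RASA1, which rose (log2 fold change 1.19, adjusted p = 0.0203, named after its value was seen), and with the block 1 rose and 1 fell.

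Scaffolds, chaperones and regulators of RAF were the list with the lowest median apart from the ERK targets, -0.43 against 0.01 over all genes tested, with 5 of 14 higher and 8 lower with MAPKi. HSP90AB1, a chaperone that RAF kinases depend on, fell from 116700 ± 6230 to 42109 ± 928 counts (by 1.47 on the log2 scale), and the scaffold CNKSR2 by 1.68. The scaffolds KSR1 and KSR2, which bind RAF and MEK together, rose by log2 fold changes of 0.62 and 1.76, KSR2 from 12.7 ± 2.40 to 43.3 ± 3.88 counts. After glutamine depletion KSR2 rose as well (log2 fold change 2.10, adjusted p = 0.0134) and HSP90AB1 fell (by 1.11, adjusted p = 0.0391). In that list 1 gene rose and 2 fell without the block, and 4 rose and 5 fell with it.

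Of 9 genes that process RAS at its carboxyl end, 3 rose and 2 fell with MAPKi, the largest changes being those of LYPLA2 (log2 fold change 0.72), a depalmitoylating enzyme, and RCE1 (0.83), the protease that trims RAS. LYPLA1 and FNTA fell by 0.25 and 0.16. After glutamine depletion 2 rose, FNTA among them (log2 fold change 0.66, adjusted p = 0.0488), and with the block 4 rose and 1 fell.

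Kinases that ERK activates, 6 tested of 8, had 3 members higher and 3 lower with MAPKi. RPS6KA3, which encodes RSK2, fell from 10115 ± 581 to 4699 ± 387 counts (by 1.11), and RPS6KA4 by 0.24, while RPS6KA2 and MKNK2 were higher by log2 fold changes of 0.30 and 0.29. After glutamine depletion RPS6KA2 and MKNK2 rose by 1.20 (adjusted p = 0.00966) and 1.17 (adjusted p = 0.0135), and RPS6KA5, named after its value was seen, fell by 1.09 (adjusted p = 0.0269). These were the 3 called of 6, and with the block 2 rose and 2 fell. Of 15 kinases of the other MAPK modules, 14 were tested with MAPKi, 3 rose and 6 fell. MAP2K3, a MEK of the p38 module, fell from 2767 ± 186 to 1356 ± 66.7 counts (by 1.03), and MAPK12 by 0.56, and MAP2K5, the MEK of ERK5, rose by a log2 fold change of 0.48. MAPK13 rose by 2.00 from a low level (4.66 ± 2.88 to 19.4 ± 6.84 counts). After glutamine depletion 2 of 13 rose and 1 fell, and with the block 5 rose and 2 fell.

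The ERK targets, which all fell with MAPKi where tested, had a median log2 fold change of 0.84 after glutamine depletion. Of 14 tested, 7 rose, against 9.74% of all genes, and with the replicate block 13 rose, against 25.6% of all genes. DUSP6 rose by 1.18 (adjusted p = 0.0205) and SPRY4 by 0.89 (adjusted p = 0.0246), whereas with MAPKi SPRY4 fell by 7.46, from 16702 ± 357 to 95.4 ± 13.1 counts.

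**Figure D5:**
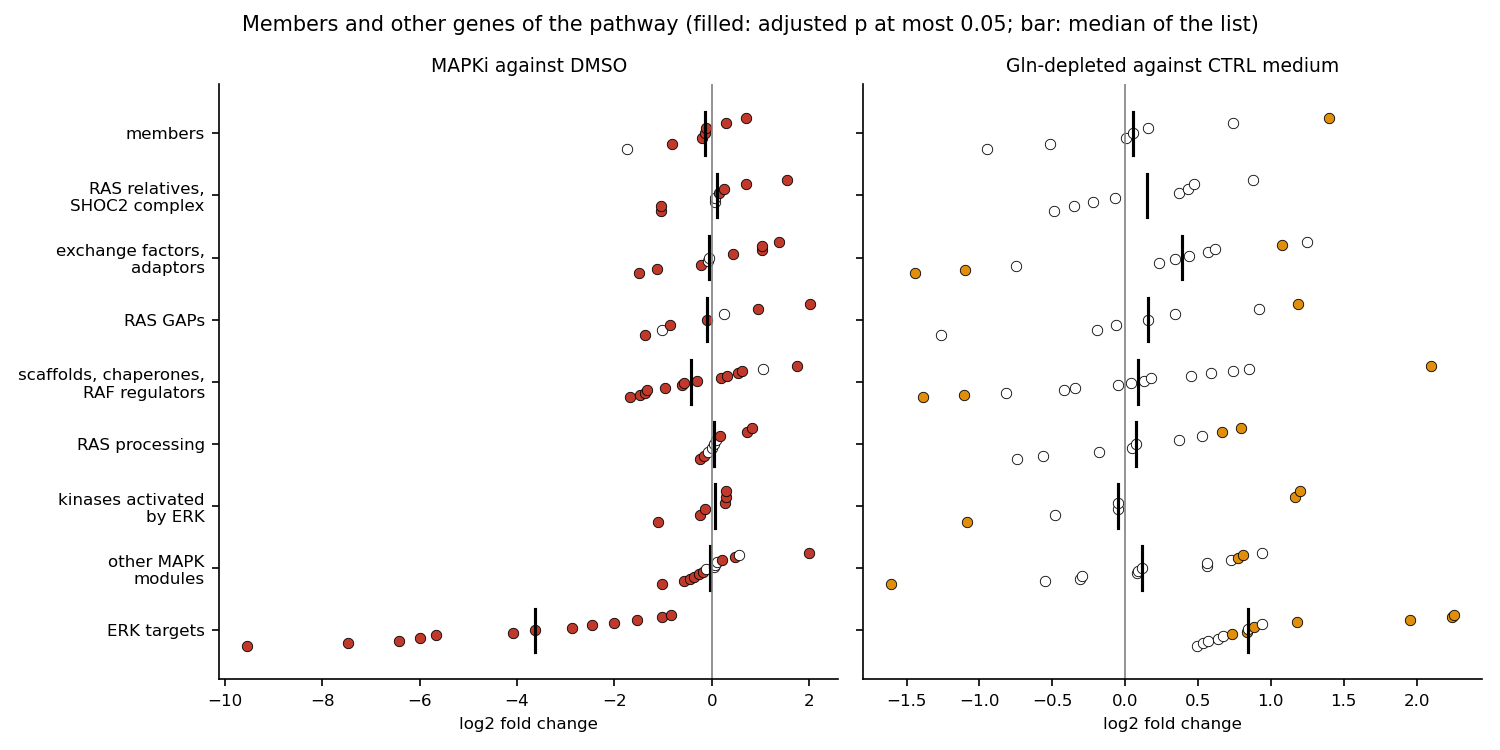
Log2 fold change of every tested gene of the members and of the lists around them, with MAPKi (left) and after glutamine depletion without the replicate block (right). Filled points have an adjusted p of at most 0.05 and bars are list medians, with the ERK targets at a median of -3.64 on the left and 0.84 on the right and the members at -0.13 and 0.06.

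Across the 12 libraries, each member was compared with 10458 other protein-coding genes by the Pearson correlation of log2 CPM. The points share their group and batch, so the values describe likeness and carry no test. PRELID3B and SMIM15 were most like NRAS (r = 0.996 and 0.994), KMT5B and ATAD2B most like BRAF (0.985 and 0.984), and MIDEAS and NIBAN2 most like MAP2K1 (0.991 and 0.984). TMEM219 and CST3 were most like ARAF (0.936 and 0.935), CDK4 and FIBP most like MAP2K2 (0.959 and 0.957), and MAGEF1 and ALDH7A1 most like MAPK3 (0.985 and 0.976). For HRAS the highest values were 0.645 (DNAAF2) and 0.623 (ABHD17C), on few reads.

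The members differ in composition. By GC content of the MANE Select exons they run from NRAS (37.4%) and BRAF (41.1%) through MAP2K1 (51.2%), ARAF (59.0%), MAPK3 (61.0%) and HRAS (64.3%) to MAP2K2 (65.4%, percentile 96.7 of the genes tested), with 47.9% as the median. At the third codon position, the paralogues MAP2K1 (63.9%) and MAP2K2 (83.8%) and the paralogues BRAF (41.4%) and ARAF (74.6%) lie far apart. Aspartate and glutamate, whose supply the study examined, make up 12.7% of MEK1 and 13.5% of MEK2, 10.6% of BRAF and 9.24% of ARAF, and 14.8% of NRAS and 15.3% of HRAS, with a median of 11.9% over the genes tested.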

How the data were processed

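Raw read counts per gene of 12 libraries were used as deposited. Per the labels and the study's methods, the authors trimmed reads with fastp 0.20.1, aligned them to GRCh38.p13 with HISAT2 2.2.1 and counted exon reads with HTSeq 0.13.5 (count setting for strand not given in the sources used here). Genes were matched to RefSeq by symbol or older symbol, and 19374 were protein-coding there. Lengths and base composition came from GENCODE. Tests covered those whose normalized counts averaged 10 or more. Each experiment was fitted alone by edgeR's quasi-likelihood method (version 4.0.16, run under R 4.3.3) after TMM scaling, with glmTreat for the 1.5-fold limit, with p-values adjusted over all genes tested, and a call is an adjusted p of at most 0.05. DESeq2 1.42.0, other normalizations, filters, a GC correction, the replicate block, batch terms and left-out libraries were alternatives. Scripts were tested on simulated counts with the spread of the control libraries. Of 100 genes with a simulated log2 change of 1 up or down, edgeR without the block called 94 in the MAPKi setting. In the glutamine setting it called 24 of 100. At a log2 change of 2 the counts were 99 and 91 of 100. Depth was 31056296 to 40071368 reads per library, and no columns of values were left out.

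Same-numbered libraries deviated together in the glutamine experiment (correlations 0.584, 0.442 and 0.386) and, by labels, share an experimental batch, so blocked values are given there. Named genes are the members, in each list the 2 genes that rose most and the 2 that fell most among those called with MAPKi, and the 2 genes most like each member by log2(CPM + 0.5). Members and lists were chosen with earlier results of these data known. Promoter windows were read from GRCh38 at MANE Select starts, and 9 of 9 RefSeq windows of the members matched that genome. Ratios were compared by a two-sided exact permutation test (scipy 1.17.1). Results of some other genes of these families, and of a marker, are not reported here.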

Additional observations from a re-analysis of the deposited data

Results flagged for a closer look

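The change with MAPKi differed from the change after glutamine depletion for 4 members, by a test of the difference itself over all 12 libraries (edgeR). Of all genes tested, 40.3% differed without the replicate block and 60.7% with it, so the members' count is no higher than the general share. MAP2K1 differed by -0.8224 on the log2 scale. With the replicate block, NRAS differed by -0.9109, BRAF by -0.6428 and MAPK3 by 0.4306. Without the block and with no other change these 3 did not pass. NRAS passed with the GC trend alone (-0.59, adjusted p = 0.00337), MAPK3 passed with library totals (adjusted p = 0.0278) and DESeq2 (adjusted p = 0.0487), and MAPK3 was lost when the GC trend was added to the block (adjusted p = 0.245). The experiment and its sequencing batch cannot be told apart.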

How the results depend on the processing

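No member's change called in the report for either experiment without the block, nor the MAP2K1 difference between them, turned direction under the alternatives run. The MAP2K2 difference, called only with the GC trend and the replicate block (-0.44), was 0.035 with library totals. With MAPKi, 2 members passed 1.5-fold, against 1 with DESeq2, 0 in a fit of all 12 libraries and 1 to 2 when a library was left out. That fit of all 12 libraries called 6328 genes in place of 9817 and 2 members in place of 6, and its spread is shared with the more variable glutamine experiment. After glutamine depletion 1 member was called. With library totals there were 2, with the replicate block 3, with the GC trend 2, with the GC trend and the replicate block 3, with all 12 libraries 3, with experimental batch as a term 3, in batch 2 alone 3, and with a library left out 0 to 1. These 3 were not the same members throughout. With the replicate block they were BRAF, NRAS and MAPK3. In batch 2 alone they were BRAF, NRAS and HRAS, the last on few reads, and MAPK3 did not pass. Past 1.5-fold the count was 0, and 1 with each of the replicate block, the GC trend, both together, all 12 libraries, the batch term and batch 2 alone, and 0 to 1 with a library left out. Over all genes, 2211 were called, against 6064, 3991, 6130, 5194, 5556 and 4360 under these 6 settings and 739 to 2750 with a library left out. Past 1.5-fold there were 679, against 2051, 1207, 1966, 1683, 1886 and 1378, and 268 to 901. Of the differences between experiments, 1 member was called, against 2 with library totals, 2 with DESeq2, 4 with the replicate block, 2 with the GC trend, 4 with both, and 0 to 3 with a library left out. Over all 12626 genes, 5090 differed, and 7658 with the replicate block. The cause of these shifts was not tested.

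In the MAPKi experiment replicate numbers paired the libraries only weakly (correlations 0.073, 0.056 and 0.056), though each library correlated best with its own number. The replicate block called 10046 genes and 6 members there. DESeq2 called 3050 genes after glutamine depletion. Among the members, depth limits HRAS most, with 1 to 77 reads.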
